A study of Mus musculus with 2 samples.

Results

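The 87 genes described here encode the proteins of the cytosolic ribosome, the particle that translates cytoplasmic mRNA. They were taken by symbol from a table of 17408 genes: names formed as Rps, Rpl or Rplp plus a number, together with Rpsa, and without the pseudogene rows that carry -ps or the Rps6k kinases. The list held 34 genes of small-subunit names, Rpsa included, and 53 of large-subunit names. It also took in Rps19bp1, which encodes a binding partner of the small-subunit protein Rps19 and not a ribosomal protein, and Rpl6l, which the annotation calls a processed pseudogene. Fau and Gnb2l1 (Rack1), which also encode ribosomal proteins, fell outside the symbols and are given separately.

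The study measured single-cell RNA during the reprogramming of mouse embryonic fibroblasts (MEFs) towards induced pluripotent stem cells. The MEFs held STEMCCA, from which doxycycline switches on Pou5f1, Klf4, Sox2 and Myc, and all cells were taken at day 16 in mouse embryonic stem cell medium with LIF and ascorbic acid, without sorting. The 2 libraries (replicates 1 and 2) formed 1 group and were made with 10x Chromium V2 3′ chemistry. The labels do not say whether they came from separate cultures, so p-values measure only the spread between these libraries, which may be technical. The publication describes independent STEMCCA systems, which the labels do not assign to libraries, so a difference between systems and one between libraries cannot be told apart.

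Replicate 1 held 3109 cells with a median of 15625 unique molecular identifiers (UMIs, each counting 1 captured mRNA) and replicate 2 held 3914 cells with a median of 14292. A total of 12 cell barcodes occurred in both libraries. No doublet caller was run. Clustering without the ribosomal genes gave 17 clusters, of which 12 had at least 30 cells in each library and served as cell states. Cluster 8 was called pluripotent-like from 12 of 12 markers (146 and 392 cells in replicates 1 and 2), cluster 10 fibroblast-like from 8 of 12 (203 and 116 cells, led by Spp1, Mmp3 and Col10a1) and cluster 6 smooth muscle-like from 6 of 6 (341 and 247 cells). Most other states are called by their leading genes, and clusters 3 and 4 by the 10 of 10 mitosis genes and 9 of 10 S-phase genes they carried. Pluripotent-like cells were deeper, with a median of 28768 and 26078.5 UMIs.

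A ribosome joins a small and a large subunit, each made of ribosomal RNA and 1 copy of most of its proteins, so the genes are transcribed widely and at high levels. Their mRNAs typically start with a C followed by a run of pyrimidines, the terminal oligopyrimidine (TOP) tract, through which mTOR signalling sets their translation. Newly made subunits are assembled in the nucleolus with the help of biogenesis factors, and unassembled Rpl5 and Rpl11 can bind Mdm2 and so stabilise p53. Several members have a duplicate, such as Rpl39l of Rpl39, Rpl10l of Rpl10, Rpl22l1 of Rpl22 and Rps27l of Rps27, and Rpl10l is known mainly from the testis.

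The start-site sequences of 4 such pairs are shown because these duplicates are where single members departed from their partners. Each run is 30 bases around the annotated start (15 before it and 15 from it on) in the RefSeq annotation of GRCm38.p6, written 5′ to 3′ on the strand of the gene. Capitals mark a TOP-like tract, searched on that strand as a C followed by at least 4 bases that are each C or T, beginning within 10 bases of the start. Only the match nearest the start is marked, from its C on. Other matches, as in Rpl39, and pyrimidines before that C stay in lower case. Rpl22 and Rps27l each have a second annotated start, shown after the first, and neither of these nor the start of Rpl10, the partner of Rpl10l, holds a tract.
Rps27, chr3:90213634-90213663, minus strand: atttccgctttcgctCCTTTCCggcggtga
Rps27l, chr9:66946071-66946100, plus strand: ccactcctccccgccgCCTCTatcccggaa
Rps27l, second start, chr9:66946398-66946427, plus strand: accatgggcttcagggtcactaacgggcct
Rpl22, chr4:152324421-152324450, plus strand: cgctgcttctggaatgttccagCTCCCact
Rpl22, second start, chr4:152325711-152325740, plus strand: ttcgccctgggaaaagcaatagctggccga
Rpl22l1, chr3:28805493-28805522, plus strand: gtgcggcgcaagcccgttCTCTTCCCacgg
Rpl39, chrX:37085208-37085237, minus strand: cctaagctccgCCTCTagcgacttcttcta
Rpl39l, chr16:10170213-10170242, plus strand: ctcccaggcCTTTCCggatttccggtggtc
Rpl10, chrX:74270801-74270830, plus strand: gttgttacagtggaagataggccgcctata
Rpl10l, chr12:66284387-66284416, minus strand: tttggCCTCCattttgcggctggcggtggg
Of the 87 members, 66 had a start-site sequence. In 14 of them (21.2%) a C at the start was followed by at least 4 pyrimidines, against 813 of 27025 annotated symbols (3.01%). Such a run may also extend before the start, as it does in Rps27. Within 10 bases of the start, 60.6% of the members and 34.4% of all symbols held such letters. Annotated starts can lie some bases from the first transcribed base, and a match only describes the letters in this window. The transcripts of the duplicates matched those of their partners over part of their length, with 84.8% identity over 171 bases for Rpl39l, 84.3% over 664 bases for Rpl10l, 76.4% over 254 bases for Rps27l and 74.6% over 299 bases for Rpl22l1. Rps27rt was identical to Rps27 over 341 bases and Rpl6l was 98.7% identical to Rpl6 over 871, so the split of reads within these 2 pairs is uncertain.

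Ribosomal protein mRNA made up 37.0% of the UMIs of the average cell in replicate 1 and 40.2% in replicate 2. Single cells ranged from 4.15 to 58.8% in replicate 1 and from 6.17 to 61.1% in replicate 2. Cluster 1 (Tac2, Dmrtc2, Rnase1) had the highest share, 45.7% in replicate 1 and 46.3% in replicate 2 (46.0% ± 0.43, SD, n = 2 libraries). Cluster 2 (2610528A11Rik, Nxpe2, Aldoc) followed with 43.4% and 44.4%, and the S-phase state with 41.4% and 44.1%. The values of these 2 neighbouring states overlapped, while both libraries of cluster 1 lay above them. The pluripotent-like cells had 39.8% and 40.8% (40.3% ± 0.73, n = 2) and the mitotic state 36.5% and 37.3%. The lowest shares were those of the smooth muscle-like cells, 29.9% and 32.9%, and the fibroblast-like cells, 29.2% and 32.9%, which overlapped each other. The other 5 states lay between 32.7 and 41.2%. All 12 states had a higher share in replicate 2, by 0.61 to 3.76 percentage points.

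**Figure D1:**
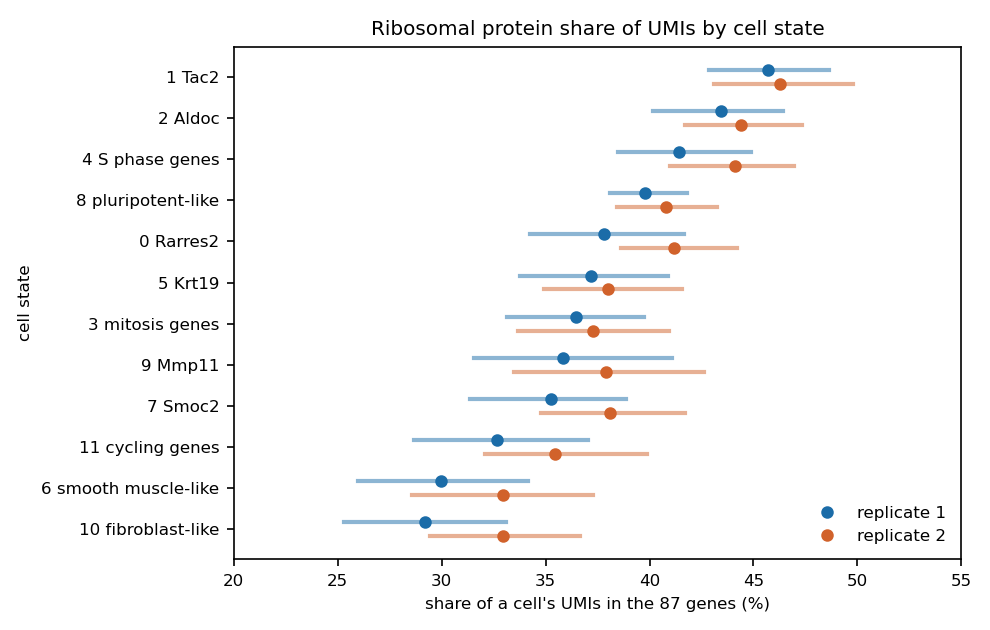
Share of the UMIs of a cell that came from ribosomal protein genes (horizontal axis, percent) in each of the 12 cell states. Dots are the means over the cells of each library and bars the interquartile range of the cells. The means run from 29.2% in fibroblast-like cells of replicate 1 to 46.3% in cluster 1 of replicate 2.

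Within a library, the share of cluster 1 stood 16.5 percentage points above that of the fibroblast-like cells in replicate 1 and 13.4 points in replicate 2. Pluripotent-like cells exceeded fibroblast-like cells by 10.6 and 7.88 points, more than the spread of this difference between the libraries (SD 1.92, n = 2). The S-phase state exceeded the mitotic state by 4.95 and 6.83 points. Cluster 11, in which 8 of 10 S-phase genes and 8 of 10 mitosis genes were raised, had lower shares than either, 32.7% and 35.5%, and differed from the S-phase state by -8.75 and -8.67 points. Against all other cells together, the pluripotent-like share was higher by 2.88 points in replicate 1 and 0.633 in replicate 2 (mean 1.76, SD 1.59, n = 2), a difference no larger than about its own spread. The exact two-sided sign-flip test gave p = 0.5 for each of these differences, the smallest value that 2 libraries allow. Across cells the share had little relation to depth, with a Spearman's rho with UMIs of 0.106 in replicate 1 and 0.0505 in replicate 2, where both measures use the total of the cell.

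The median member varied less over the states than the median gene. All 85 members that passed the filter (0.1 UMI per 10000 or more on average over all cells, which left out Rpl3l and Rpl10l) differed over the 12 states at an adjusted p of at most 0.00862 (limma on log2 mean UMIs per 10000 plus 0.1, library as a term), where 95.0% of the 7131 genes tested did. The range between the highest and the lowest state, on that log2 scale, had a median of 0.63 over the members, against 1.06 over all genes and 1.10 over the 132 other genes whose mean reached 5 UMIs per 10000. It stayed below 1 for 82 of the 85. The state with the highest value was cluster 1 for 57 members and the pluripotent-like state for 21, and the lowest was the fibroblast-like state for 44 and the smooth muscle-like state for 30.

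The median member of cluster 1 lay 0.31 above its mean over the states in replicate 1 and 0.24 above it in replicate 2, on the log2 scale. In fibroblast-like cells the median deviation was -0.35 and -0.25, and 0 and 1 of the 85 members lay above their own mean. The S-phase state had 83 of 85 above it in each library, whereas cluster 11, which also carried S-phase genes, had 5 and 8, with medians of -0.18 and -0.14. Pluripotent-like cells were at 0.13 and 0.08. The median over all genes lay between -0.14 and 0.11 in every state and library.

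**Figure D2:**
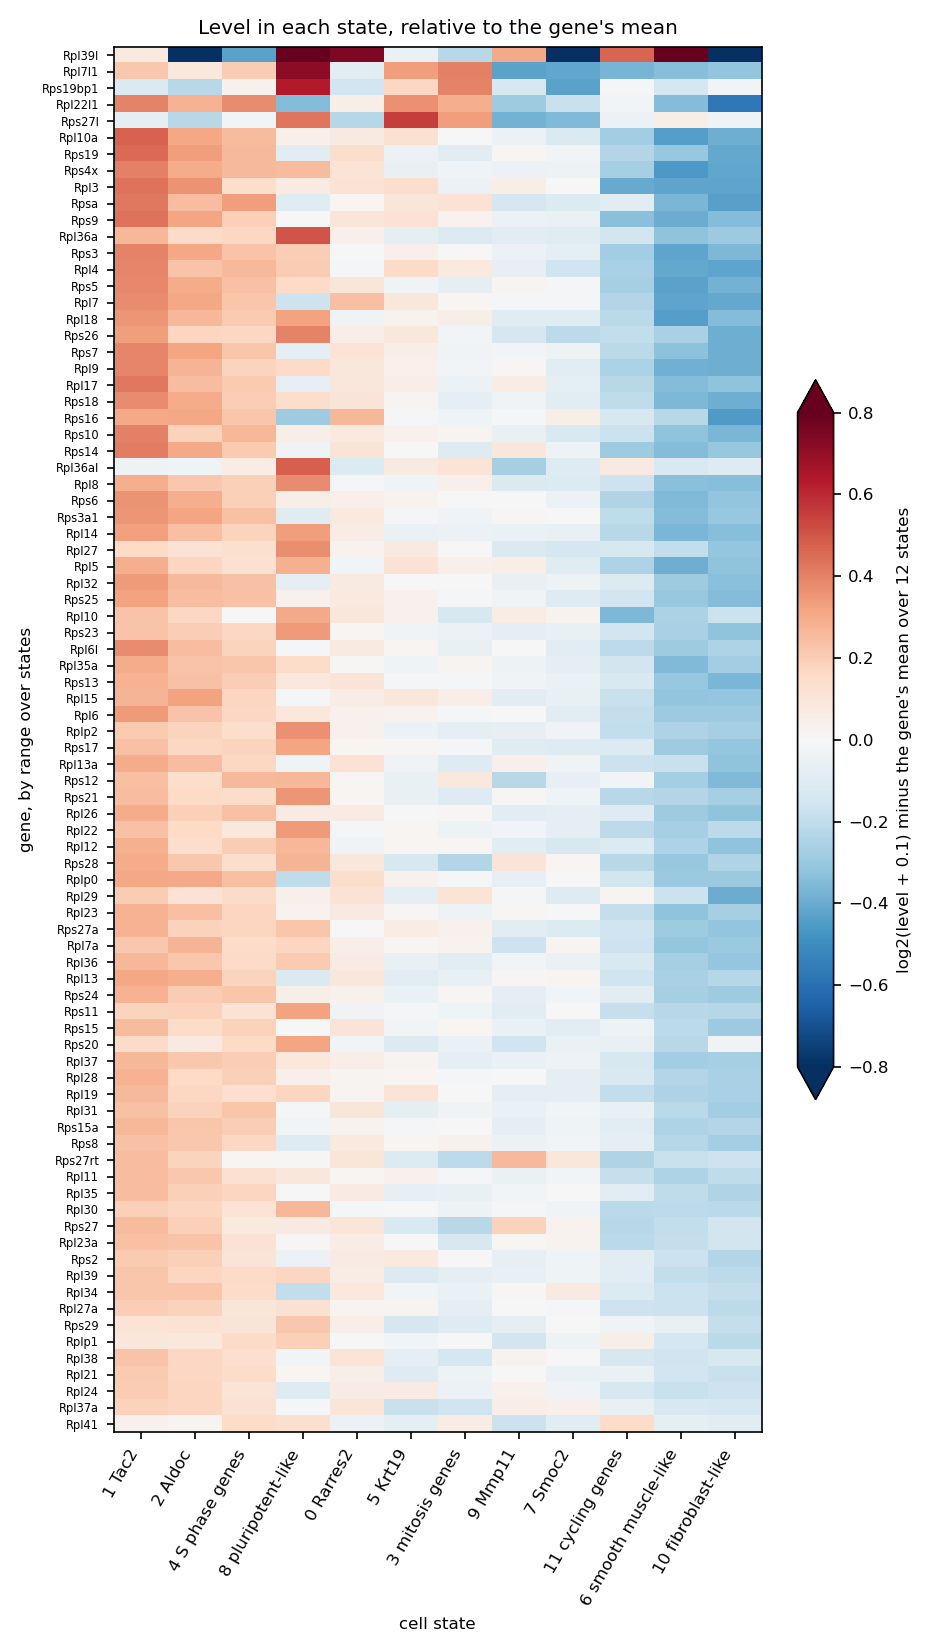
Levels of tested members (rows, ordered by the range over states) in the 12 cell states (columns), as log2 of mean UMIs per 10000 plus 0.1, averaged over the 2 libraries, minus the mean of the gene over the states. Colours are limited to ±0.8, and most rows are highest in cluster 1 and lowest in the fibroblast-like and smooth muscle-like states.

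The narrowest member was Rpl41, a very short basic protein of the large subunit. It had 134 and 132 UMIs per 10000 in the S-phase state, its highest, and 106 and 107 in cluster 9 (Mmp11, Dcn, Gpx3), its lowest, a log2 range of 0.32. The libraries did not overlap between these states even for this gene. The next narrowest ranges were 0.36 for Rpl37a, 0.38 for Rpl24 and 0.39 for Rpl21 and Rpl38.

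The widest ranges belonged to duplicates and to Rps19bp1. Rpl39l spanned 2.51 on the log2 scale, and Rpl7l1, which resembles Rpl7 only in 17 aligned bases of transcript and is known as a biogenesis factor, spanned 1.14, from 0.475 and 0.482 UMIs per 10000 in cluster 9 to 1.30 and 1.07 in pluripotent-like cells. Rpl22l1 spanned 0.97, with 15.7 and 13.2 UMIs per 10000 in fibroblast-like cells and 28.6 and 28.2 in cluster 1. Rps27l, a p53 target that can stand in for Rps27, spanned 0.93, with 9.46 and 10.0 in cluster 9 and 18.5 and 18.7 in cluster 5 (Perp, Krt19, Gsto1). For each of these genes the 2 libraries of the high state lay above both of the low state.

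In pluripotent-like cells against all other cells, the members moved in both directions and by little. Of the 85 members, 24 (28.2%) were higher and 6 (7.06%) lower at an adjusted p below 0.05 (limma), while 31.4% of all 7131 genes tested were higher and 46.0% lower, 77.4% in all. The median log2 fold was 0.05 over the members (0.12 in replicate 1 and 0.01 in replicate 2) and -0.16 over all genes. Centred on the median gene, 43 members were higher and 1 lower (Rpl22l1), so the calls of the other 5 lower members depended on this scaling. The shares of all genes called with centring are not given here, so these centred counts cannot be set against them. Against fibroblast-like cells, 52 of the 85 were higher and 0 lower (0 also at an unadjusted limma p under 0.05), where 31.1% of all genes were higher and 44.1% lower, 75.3% in all. The median there was 0.38 over the members (0.45 and 0.32) and -0.18 over all genes, and 82 members were higher in both libraries. Both comparisons used the same pluripotent-like cells, and the limma spread was shared across genes, so the p-values rest on 2 libraries and that shared estimate.

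**Figure D3:**
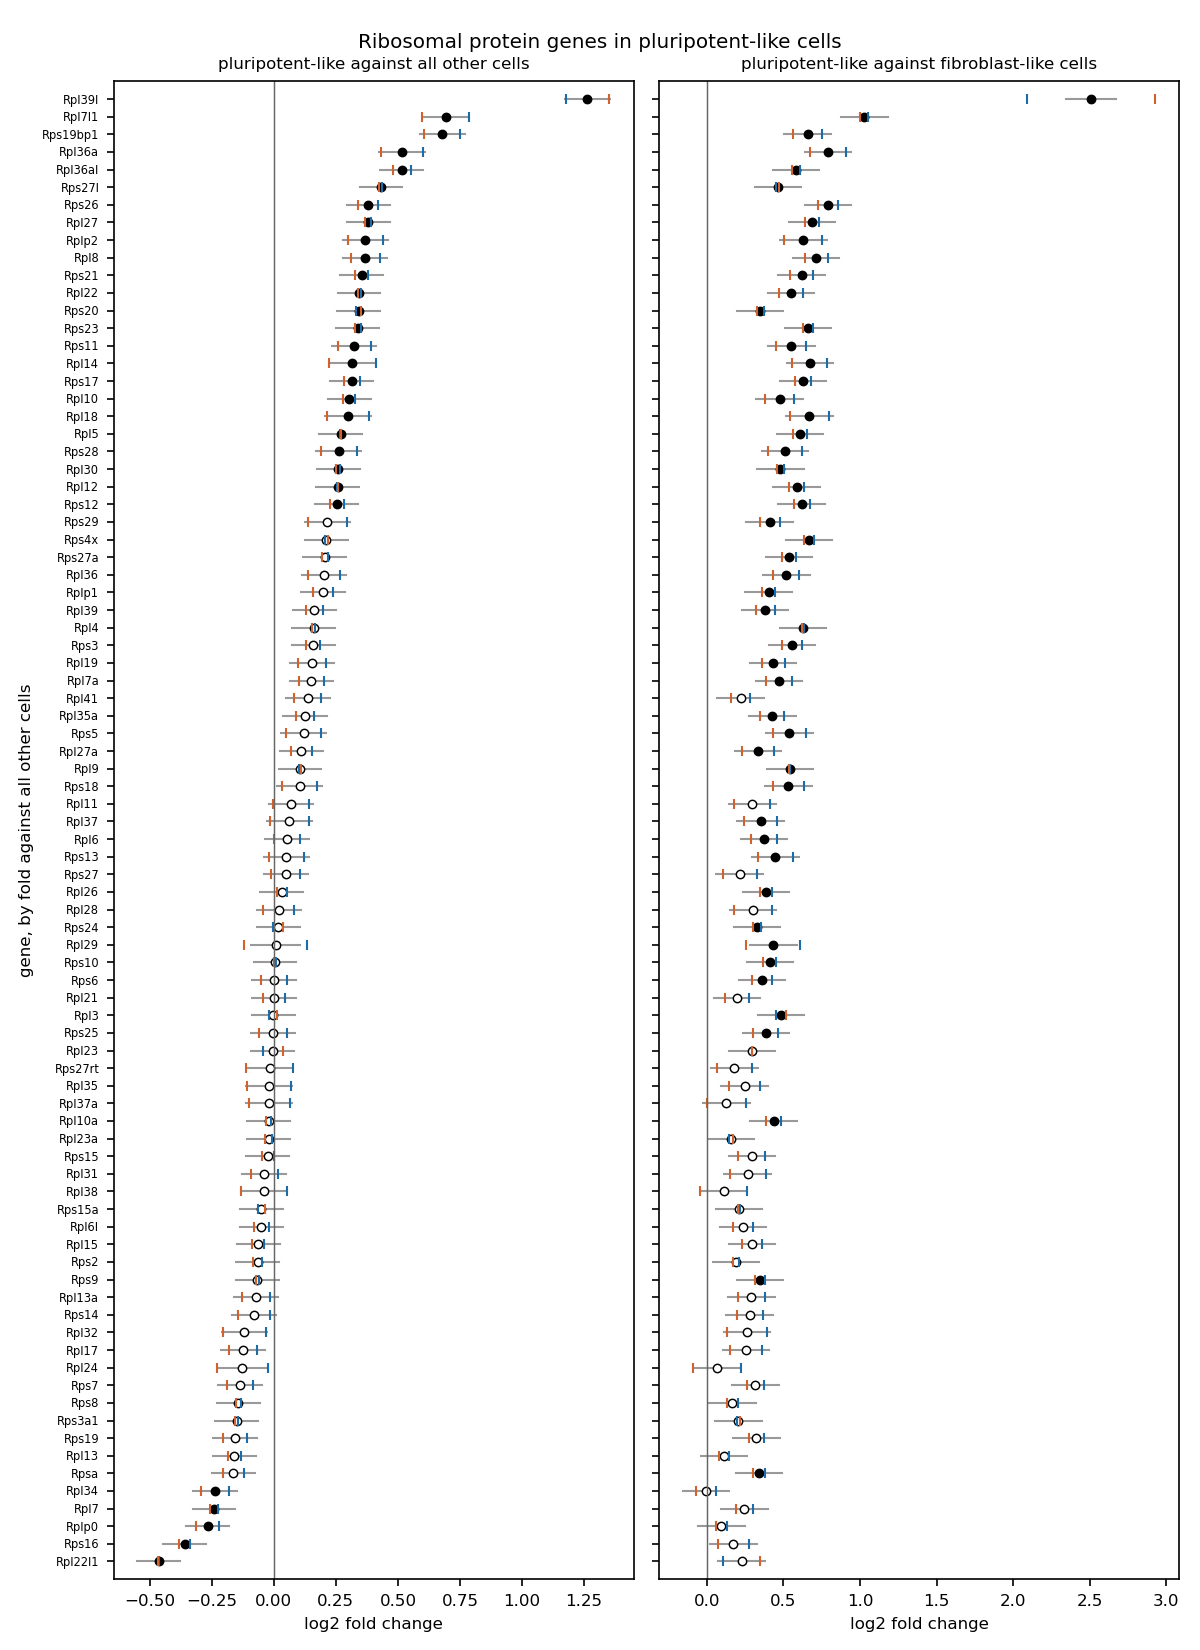
Log2 folds of tested members in pluripotent-like cells against all other cells and against fibroblast-like cells, with standard errors as grey bars. Filled points passed an adjusted p of 0.05, open points did not, and ticks give the fold within replicates 1 and 2. Most folds against fibroblast-like cells lie above 0, with a median of 0.38, while those against all other cells lie around a median of 0.05.

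Among the small-subunit genes, Rps26, which lies at the mRNA exit channel, had 43.5 and 46.1 UMIs per 10000 in pluripotent-like cells, 32.4 and 36.4 in all other cells and 24.0 and 27.9 in fibroblast-like cells. The pluripotent-like libraries lay above both other groups, with log2 folds of 0.38 ± 0.09 (SE, n = 2; adjusted p = 0.00462) and 0.79 ± 0.15 (adjusted p = 1.05e-05). Rps16 had 59.1 and 64.5 in pluripotent-like cells and 74.8 and 84.0 in all others, a log2 fold of -0.36 (adjusted p = 0.00578). This call was lost with centring and in cells with at least 2 Y-linked UMIs. Against fibroblast-like cells (48.9 and 61.4), the groups of Rps16 values overlapped and its log2 fold was 0.17 (adjusted p = 0.303). Rps6, the subunit's target of S6 kinases, had 42.4 and 44.6 against 40.8 and 46.2 in all other cells, which overlapped (log2 fold 0.00, adjusted p = 0.994), and its fold against fibroblast-like cells was 0.36 (adjusted p = 0.0298). Rpsa, also known as a laminin receptor, gave -0.16 (adjusted p = 0.123) and 0.34 (adjusted p = 0.0401). The calls against fibroblast-like cells were lost in some alternatives, 7 for Rpsa (adjusted p up to 0.292) and 4 for Rps6 (up to 0.151), both with the members kept in the clustering at the highest p, while the folds stayed above 0.

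The stalk of the large subunit, which recruits the translation factors, is built from Rplp0, Rplp1 and Rplp2. Rplp2 had 70.7 and 69.4 UMIs per 10000 in pluripotent-like cells and 52.1 and 56.4 in all others, a log2 fold of 0.37 (adjusted p = 0.00627). Rplp0 had 52.3 and 52.6 against 61.0 and 65.4, a log2 fold of -0.27 (adjusted p = 0.0236). Rplp1 gave 0.20 (adjusted p = 0.0703). Thus Rplp2 and Rplp0 were called in opposite directions. The call of Rplp0 was lost with centring, with a pseudocount of 0.01 and in cells without a Y-linked UMI. Against fibroblast-like cells, Rplp2 rose by 0.63 and Rplp1 by 0.40, and the fold of Rplp0 was 0.10 (adjusted p = 0.575). The call of Rplp1 there was lost with a pseudocount of 0.01 and in cells without a Y-linked UMI.

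Of the genes whose proteins bind Mdm2, Rpl5 had 18.2 and 19.96 UMIs per 10000 in pluripotent-like cells, against 15.1 and 16.5 in all other cells and 11.5 and 13.5 in fibroblast-like cells. It rose by 0.27 (adjusted p = 0.0213) and 0.61 (adjusted p = 0.000399) on the log2 scale. The call against all other cells was lost in 2 alternatives, a pseudocount of 0.01 and cells without a Y-linked UMI. Rpl11 did not pass in either comparison, with log2 folds of 0.07 (adjusted p = 0.505) and 0.30 (adjusted p = 0.0742). Rpl8 rose by 0.37 and 0.71, and Rpl36al, the autosomal duplicate of Rpl36a, by 0.52 and 0.58. Further lower calls against all other cells were Rpl7 (-0.24) and Rpl34 (-0.24). Each was lost in 6 alternatives, among them centring and a pseudocount of 0.01. Of the 85 members, Rpl34 alone had a fold below 0 against fibroblast-like cells (-0.01, adjusted p = 0.97), and with centring all 85 lay above 0.

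Rpl7l1 had 1.30 and 1.07 UMIs per 10000 in pluripotent-like cells against 0.709 and 0.674 in all others, and rose by 0.69 (adjusted p = 0.000259) and, against fibroblast-like cells, by 1.03. Rps19bp1 had 1.19 and 0.971 against 0.664 and 0.604 and rose by 0.68 (adjusted p = 0.000244) and 0.66. For both genes the pluripotent-like libraries lay above those of the other groups.

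Among the duplicates proper, Rpl22 and Rpl22l1 moved in opposite directions. Rpl22l1 fell in pluripotent-like cells, with 16.97 and 16.9 UMIs per 10000 against 23.4 and 23.3 in all other cells (log2 fold -0.46 ± 0.09, adjusted p = 0.00153). Rpl22 rose, with 18.2 and 19.8 against 14.2 and 15.6 (0.34 ± 0.09, adjusted p = 0.00714). The ratio of Rpl22l1 to Rpl22 UMIs was therefore 0.935 and 0.853 in pluripotent-like cells and 1.65 and 1.49 in all others. Its highest values were 1.96 and 1.72, in cluster 5, although the mitotic (1.80 and 1.82) and S-phase states (1.75 and 1.79) overlapped these. Fibroblast-like cells had 1.35 in replicate 1 and 0.930 in replicate 2, so the second overlapped the pluripotent-like values, and against them Rpl22l1 did not pass (log2 fold 0.23, adjusted p = 0.172).

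Rps27l rose in pluripotent-like cells, from 12.8 and 12.4 UMIs per 10000 in all other cells to 17.4 and 16.7 (log2 fold 0.43, adjusted p = 0.00225), while Rps27 had 59.6 and 59.5 against 55.4 and 59.9 (0.05, adjusted p = 0.638). The call of Rps27l was lost in cells with at least 2 Y-linked UMIs. The ratio of Rps27l to Rps27 was 0.353 and 0.360 in cluster 5, 0.334 and 0.323 in the mitotic state, 0.291 and 0.281 in pluripotent-like cells and 0.152 and 0.149 in cluster 9. These 4 states did not overlap in the ratio.

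**Figure D4:**
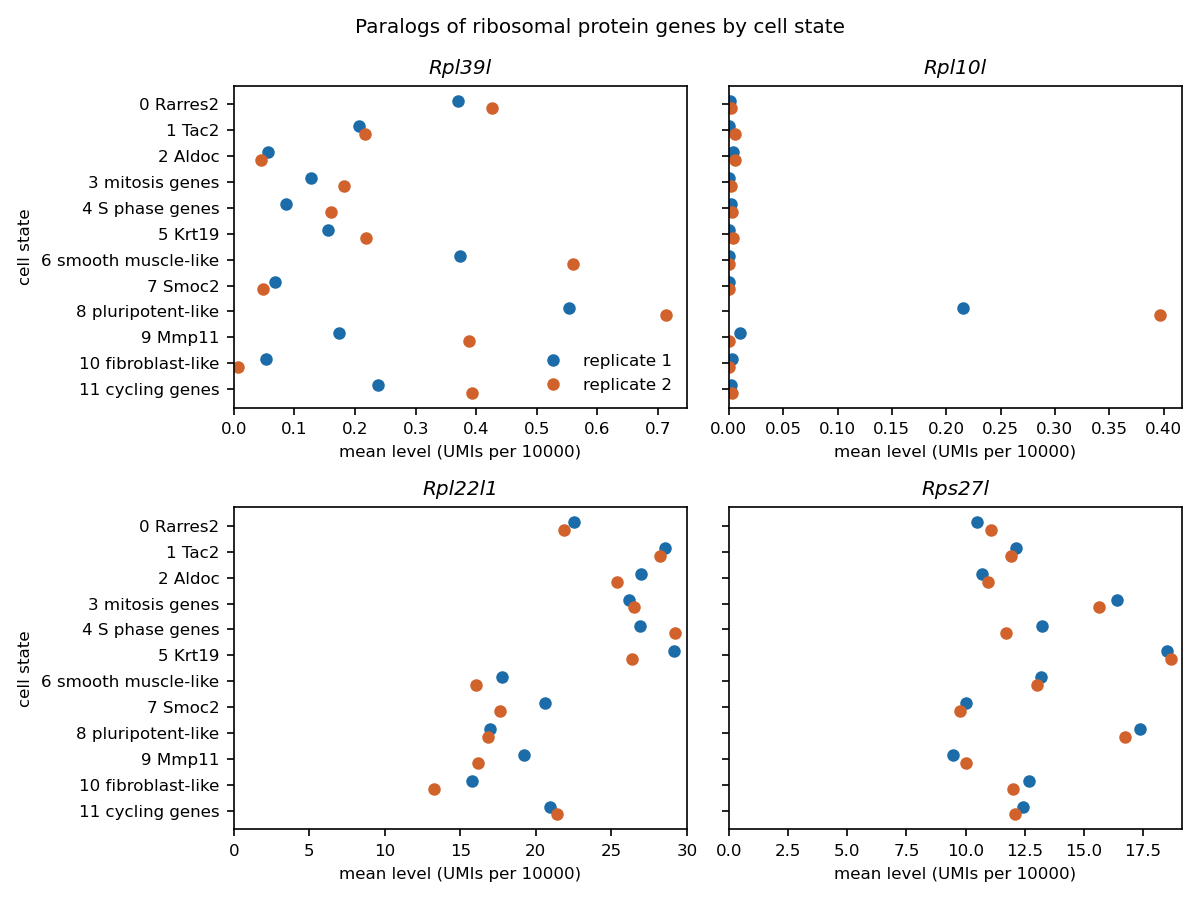
Mean level (horizontal axis, UMIs per 10000) of Rpl39l, Rpl10l, Rpl22l1 and Rps27l in each of the 12 cell states, with 1 dot per library. Each panel has its own scale. Rpl22l1 has its highest mean in cluster 1, at 28.6 and 28.2, where clusters 4 and 5 overlap it, and Rps27l is highest in cluster 5, at 18.5 and 18.7, while Rpl39l reaches 0.553 and 0.712 in pluripotent-like cells.

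Among the 85 tested members, Rpl39l had the largest fold. It had 0.553 and 0.712 UMIs per 10000 in pluripotent-like cells against 0.189 and 0.218 in all other cells, a log2 fold of 1.26 ± 0.09 (adjusted p = 1.02e-05). In all, 221 UMIs in replicate 1 and 744 in replicate 2 came from pluripotent-like cells, and 57.5% and 49.2% of these cells had at least 1, against 11.1% and 11.7% of all other cells. Pluripotent-like cells were deeper, so these percentages were not taken at equal depth. Scaled to 1000000 UMIs, their level was 2.88 times that of all other cells in replicate 1 and 3.39 times in replicate 2. Fibroblast-like cells held 18 UMIs in replicate 1 and 2 in replicate 2. Per 1000000 UMIs the pluripotent-like level was 9.11 times (95% interval 5.63 to 15.7) and 55.5 times (15.3 to 459) that of fibroblast-like cells, intervals that cover counting error only. The fitted log2 fold of 2.51 depends on the pseudocount and is not a bound.

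The gene was not limited to the pluripotent-like state. Cluster 0 (Rarres2, Sostdc1, Cyp11a1) had 42.2 and 44.5 Rpl39l UMIs per 1000000, and the smooth muscle-like cells 35.1 and 54.3. Pluripotent-like cells had 52.3 and 71.7, so their lower library overlapped the smooth muscle-like range. In cluster 2 the levels were 6.09 and 4.11, and in cluster 7 (Smoc2, Pcp4, Mmp13) 7.45 and 5.21.

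Rpl10l, the autosomal duplicate of the X-linked Rpl10, was too low over all cells for the test. Its UMIs numbered 87 and 431 in pluripotent-like cells, in 39.0% and 53.3% of these cells, and 7 and 15 in all other cells, in 0.24% and 0.43% of them. The median depth of all other cells was 15214 and 13652 UMIs, below that of pluripotent-like cells, and per 1000000 UMIs the levels were 20.6 and 41.6 against 0.14 and 0.28. The ratio was 147 (95% interval 68.3 to 376) in replicate 1 and 150 (90.2 to 271) in replicate 2. These intervals, and the one for Rpl3l below, cover counting error only and not the spread between cells or libraries. Rpl3l, the striated-muscle duplicate of Rpl3, was counted 15 times in the pluripotent-like state of replicate 2 and 1 time in all other cells of that library, a ratio of 78.5 (12.1 to 3305) after scaling to all UMIs. Its count was 0 in both groups of replicate 1, so no ratio is given there.

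The X chromosome carries 4 members, Rpl39, Rpl10, Rps4x and Rpl36a, of which Rpl36a and Rpl10 rose in pluripotent-like cells against all others. Rpl36a had 53.0 and 51.1 UMIs per 10000 against 34.9 and 37.8 (log2 fold 0.52, adjusted p = 0.00118), and Rpl10 had 52.6 and 58.6 against 41.9 and 48.2 (0.30, adjusted p = 0.013). Rps4x gave 0.21 (adjusted p = 0.0543) and Rpl39 0.16 (adjusted p = 0.121), and both passed once centred on the median gene. Against fibroblast-like cells all 4 rose, by 0.38 to 0.79. Over all genes tested 31.4% were higher against all other cells and 31.1% against fibroblast-like cells. With a pseudocount of 0.01 the calls of Rpl10 in both comparisons were lost. That of Rpl39 against fibroblast-like cells was lost with this pseudocount and with the members kept in the clustering. The median over the 81 autosomal members was 0.05 against all other cells and 0.37 against fibroblast-like cells.

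The libraries held cells with and without UMIs of 8 Y-linked genes, and the split was made after seeing the data. Among cells without a Y-linked UMI (82 and 206 pluripotent-like, 1787 and 2166 others), the log2 fold in pluripotent-like cells was 0.81 for Rpl36a, 0.62 for Rpl10, 0.48 for Rps4x and 0.46 for Rpl39, each passing. Among cells with at least 2 Y-linked UMIs (48 and 153, 644 and 729), it was 0.02 for Rpl36a (adjusted p = 0.904), -0.26 for Rpl10 (adjusted p = 0.0731), -0.24 for Rps4x (adjusted p = 0.101) and -0.35 for Rpl39 (adjusted p = 0.021). The autosomal members had a median of 0.04 and 0.06 in these sets, and the other X-linked genes 0.19 and -0.33. In the limma test of the difference itself, 0 of the 85 members passed, with adjusted p = 0.144 for Rpl36a, Rpl10 and Rpl39 and 0.145 for Rps4x. Over all 7131 genes 3 passed (0.0421%), of which 2 were among the 207 other X-linked genes tested. At an unadjusted p under 0.05 (limma) there were 4 of the 85 members, the X-linked ones, with p between 0.000103 for Rpl10 and 0.000551 for Rps4x. The share of all genes under that unadjusted p is not given here, so the count is not a call of these members. Pluripotent-like cells were the deeper group in both sets.

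The genes that make ribosomes had larger median folds than the genes of ribosomal proteins. Of 34 tested biogenesis factors, which process and assemble ribosomal RNA, 33 rose and 0 fell (0 also at an unadjusted limma p under 0.05) in pluripotent-like cells against all others, with a median log2 fold of 1.16. Over all genes tested 31.4% were higher and 46.0% lower. Examples are Dkc1, the pseudouridine synthase of box H/ACA particles (1.96), and Rrp9, a protein of box C/D particles (1.79). Of 10 tested genes of RNA polymerase I and its factors, which transcribe most ribosomal RNA, 9 rose, led by Znrd1 (1.19) and Twistnb (1.18), and Polr1d fell by 0.34, a call lost with centring. Against fibroblast-like cells 34 of 34 biogenesis factors rose (median 1.66, Dkc1 2.78 and Nop56 2.63) and 9 of 10 polymerase I genes did (1.05). Over all genes tested there, 31.1% were higher and 44.1% lower. In the comparison with all other cells these 2 medians, 1.16 and 0.90, stood beside 0.05 over the ribosomal protein genes.

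Of the 16 other TOP mRNAs tested, such as translation factors, 3 rose and 7 fell against all other cells (median -0.07). The most changed were Nap1l1 at 0.57, Hnrnpa1 at 0.48, Tpt1 at -0.59 and Eif3f at -0.52. Over all genes tested in this comparison 31.4% were higher and 46.0% lower, and neither TOP count exceeded these shares. With centring 5 rose and 5 fell, and the median turned to 0.10, where the shares of all genes are not given here. Against fibroblast-like cells 7 rose and 3 fell (median 0.27), where 31.1% of all genes were higher and 44.1% lower. Mitochondrial ribosomal proteins, tested at 73 genes, had 44 higher and 6 lower against all other cells (median 0.34) and 45 higher and 5 lower against fibroblast-like cells (0.53), with Mrpl15 highest (1.65 and 1.90) and Mrps21 lowest (-0.86 and -0.97) in both. Of the ribosomal proteins outside the symbol rule, Gnb2l1 rose by 0.23 (adjusted p = 0.04), while Fau (-0.02) did not pass. Among 6 genes of the p53 response to nucleolar stress, 3 rose and 2 fell, with Trp53 at 1.18 and its target Cdkn1a at -1.20.

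Of the 85 tested members, 1 differed by 2-fold or more between the 2 libraries. Rpl29 had 10.7 UMIs per 10000 over all cells in replicate 1 and 29.98 in replicate 2, a log2 difference of 1.48, where 0.252% of all 7131 genes reached 2-fold. The others were closer, with 73 of 85 higher in replicate 2 and a median log2 difference of 0.13 against -0.06 over all genes. Gm10709, a processed pseudogene of Rpl29, ran the opposite way with 8.14 and 0.132 UMIs per 10000. Their sum was 18.8 and 30.1, so a log2 difference of 0.67 remained. Within the 12 states the difference in Rpl29 was 1.24 to 1.60 and that in the sum 0.56 to 0.75.

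The transcript of Rpl29 (chr9:106429454-106431568, plus strand, GRCm38) and Gm10709 (chr9:7751725-7752204, plus strand) differ at 4 of 480 aligned bases. Counted from 1 at the A of the Rpl29 start codon, these are G205A, C300T, T423C and G457A, with the base of Rpl29 first. The stretches around the first and the last are shown with the differing base in capitals, since a read inside the aligned bases that covers none of the 4 matches both genes equally.
Rpl29, bases 191 to 219: cagtgagtgcgcgcGcagaggccatcaag
Gm10709, same bases: cagtgagtgcgcgcAcagaggccatcaag
Rpl29, bases 443 to 471: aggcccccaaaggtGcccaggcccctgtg
Gm10709, same bases: aggcccccaaaggtAcccaggcccctgtg

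Within replicate 1 the cells fell into 2 sets by the share of Rpl29 in the UMIs of both genes, divided at 35% after seeing the data. In 865 of 3108 cells (27.8%) the median share was 6.25% (interquartile range 2.44 to 10.4%), and in the other 2243 it was 69.4% (63.6 to 75%). Only 14 cells lay within 5 points of the division. In replicate 2 the median was 100%, with 2 of 3913 cells below 35%. Low-share cells occurred in all 12 states of replicate 1, making up 20.8 to 35.9% of each.

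**Figure D5:**
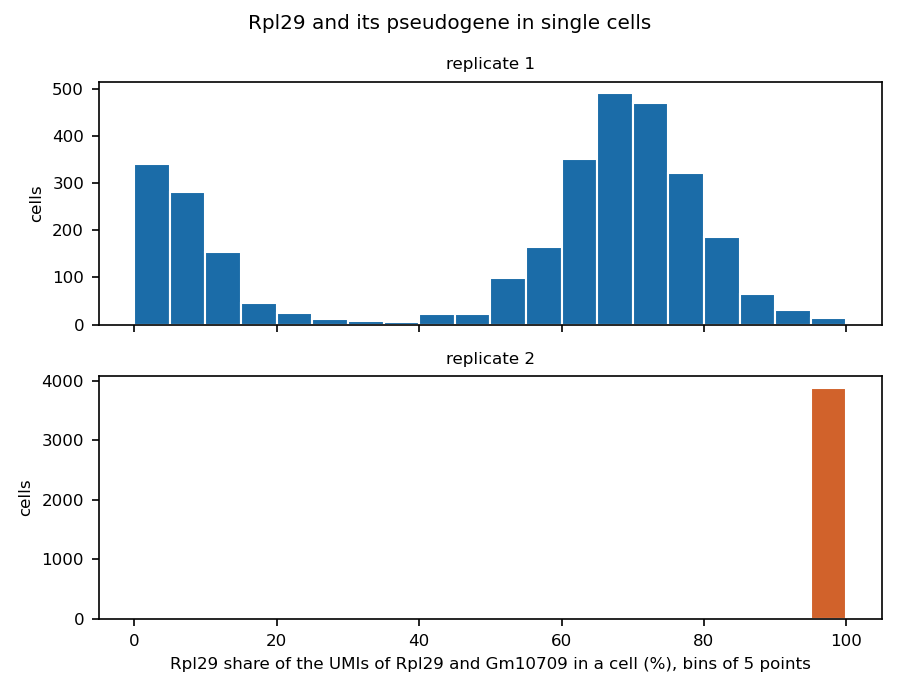
Cells by the share of Rpl29 in their UMIs of Rpl29 and Gm10709 together (horizontal axis, percent, bins of 5 points) in each library. Replicate 1 shows 2 separate sets with medians of 6.25% and 69.4%, and replicate 2 lies near 100%.

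The level of Rpl29 was 0.985 UMIs per 10000 in low-share cells, 14.4 in high-share cells and 29.98 in replicate 2, and that of Gm10709 was 12.7, 6.40 and 0.132. With 1 library there is no test of these sets. Rpl29, which divided the cells, was the one member at least 2-fold apart between them, where 0.124% of 7258 genes were, and 83 of 85 members lay within 0.2 on the log2 scale. Rps2, at the mRNA entry of the small subunit, was outside it with 70.1 UMIs per 10000 in low-share cells, 52.5 in high-share cells and 73.3 in replicate 2. Xist, the non-coding RNA of the inactive X chromosome, was at 0.132, 6.24 and 4.67, and 70.3%, 28.2% and 39.4% of cells had a Y-linked UMI. Depth hardly differed, with median UMIs of 15712 and 15563, and the ribosomal share was 37.7% and 36.8%. The labels do not say whether either library holds cells of more than 1 origin. Values of replicate 1 elsewhere in the text are means over both sets. Outside the split by Y-linked UMIs, those of both libraries are means over cells with and without such UMIs. The part of these differences in the Rpl29 shares was not tested.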

How the data were processed

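Single-cell RNA-seq of 2 day 16 libraries was analysed from the table deposited by the authors, whose values are natural log (1 + UMIs of a gene per 10000 UMIs of the cell). According to the submitters' processing notes, Cell Ranger 2.1.1 and Seurat were used with mm10. Whole UMIs were recovered, since 100% of values were whole multiples of 1 UMI of the cell within 0.01. The authors had already filtered the cells, which had 1508 to 5987 genes and at most 8.99% mitochondrial UMIs.

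Cells were clustered (scanpy 1.11.5, leidenalg 0.10.2, 2000 variable genes, 30 components, 15 neighbours, resolution 1) with 254 genes left out, including the members and comparison lists. A cluster was named when at least 3 and 50% of the fixed markers of a class were 2-fold higher. Further conditions applied, among them that no other class had more markers among the leading genes of the cluster. This naming rule was chosen with the clustering already known, so the names, fibroblast-like included, were not preset. Mean UMIs per 10000 per state and library were tested as log2(mean + 0.1) with limma 3.58.1 in R 4.3.3, with library as a term, Benjamini-Hochberg adjustment over all genes with a mean of at least 0.1, and a threshold of 0.05. Libraries, not cells, were the replicates. The test was also run on simulated profiles with the same added spread between libraries for every gene, and the outcome is not given here. Genes were named as partners of duplicates, as members with a set role, by their place among the largest folds and ranges, or, for lists, as the most changed. Rps2 was named after its values were seen. Some genes are not reported here. Transcripts were aligned with BLASTN 2.17.0+. The members and lists were chosen with earlier results of these data known. Alternatives covered the pseudocount, low-value filter, scaling, clustering, depth, deepest cells and each library.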

Additional observations from a re-analysis of the deposited data

Results flagged for a closer look

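The fold of 3 X-linked members in pluripotent-like cells against all other cells took opposite signs in cells without a Y-linked UMI and in cells with at least 2, in each library. The difference of the log2 folds was 0.88 for Rpl10, 0.81 for Rpl39 and 0.72 for Rps4x, and in the limma test of the difference over all genes these gave adjusted p of 0.144, 0.144 and 0.145, so none passed. The median of the other X-linked genes also changed sign, with 0.19 in the first set of cells and -0.33 in the second. The pattern was thus not particular to ribosomal protein genes.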

How the results depend on the processing

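Against all other cells, 30 members were called (24 higher, 6 lower), where 77.4% of all genes tested were. In the comparison with fibroblast-like cells 75.3% of all genes were called. The shares of all genes under the alternatives are not given here, so the counts that follow describe the members only. With a pseudocount of 1 the calls were 51 (38 higher, 13 lower), and with 0.01 they were 18 (2 lower). Centring on the median gene gave 43 higher, 1 lower and a median of 0.21. Choices made after seeing the data moved the lower calls to 11 (a variance prior that follows the mean), 2 (cells without a Y-linked UMI) and 3 (cells with at least 2), and in the last set Rpl39 (-0.35), Rpl10 (-0.26) and Rps4x (-0.24) changed sign, as did Rpl3 (0.048). Against fibroblast-like cells, 52 calls became 29 with a pseudocount of 0.01 and 83 with centring, and the median of 0.38 became 0.57 when scaled to genes that are not members, 0.62 with centring, 0.28 at resolution 2 and 0.27 with the members kept in the clustering. Without the replicate block, that is without library as a term, 28 members (24 higher, 4 lower) and 44 were called. With either library left out, the median ranged from 0.01 to 0.12 against all other cells and from 0.32 to 0.45 against fibroblast-like cells, and the difference in share from 0.633 to 2.88 points. Summing Rpl29 with Gm10709 left 0 members 2-fold apart between the libraries. Over states, 81 to 86 members were called under the alternatives run. For the single genes named, 602 values kept their direction and side of the threshold, 34 passed it newly, 46 no longer passed and 12 changed sign. Besides those above, the latter missed the threshold in both fits: against all other cells, Rpl3 with centring (0.16) and without the deepest cells (0.013), Rpl29 without the deepest cells (-0.021), and Rps6 scaled to genes that are not members (-0.0019) and in cells without a Y-linked UMI (-0.0066). Against fibroblast-like cells they were Rpl22l1 (-0.039) and Rplp0 (-0.034) at resolution 2, and Rplp0 with the members kept in the clustering (-0.077). The cause of these changes was not tested. The 2 comparisons were not run within 10000 to 20000 UMIs, where replicate 1 held 18 pluripotent-like cells, and fibroblast-like cells with at least 2 Y-linked UMIs were too few. With 2 libraries, differences within their spread were not detectable.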
